A study of Mus musculus with 12 samples.

Results

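Among 12 libraries of ribosome-bound RNA from mouse melanomas, 3 held the pigment cell transcript Pmel at 1500 CPM or more (the Pmel-rich libraries) and 6 held less (the Pmel-poor libraries). CPM is the count of a gene per 1000000 counts of its library, with the ribosomal RNA precursor gene Rn45s left out of the total. The other 3 libraries were left out because the endothelial cadherin transcript Cdh5 stood at 300 CPM or more in them. The Pmel-rich libraries were B16F10 replicate 3 and B16F0 replicates 1 and 2. The Pmel-poor ones were B16F10 replicates 1, 2, 6 and 7 and B16F0 replicates 4 and 5. The classes were chosen from the measured values of Pmel and Cdh5, so every difference between them below is a description of these 9 libraries and carries no test.

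B16F10 and B16F0 are melanoma lines of C57BL/6 mice, which the labels call highly and poorly metastatic (7 and 5 libraries). The tumours grew under the skin for 12 days in C57BL/6 mice with the alleles Rpl22fl/flHA and Cdh5(PAC)-CreERT2. All hosts received tamoxifen, which activates Cre in cells that use the Cdh5 promoter, so that endothelial ribosomes carry the HA tag by which they are pulled down. No group without the tag or without Cre was analysed here, and the labels do not say whether replicates came from separate animals. The series compares the endothelium of the 2 tumour lines, while the transcripts of the Pmel classes bear on what else the precipitates held.

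Pmel encodes the protein whose fibrils form the scaffold of the pigment organelle, the melanosome. Tyr, Tyrp1 and Dct encode the enzymes that make melanin on it, and Mlana another melanosomal protein. In pigment cells these genes are targets of the transcription factor MITF, which works with SOX10 and PAX3, and melanoma cells of the B16 lines keep this programme. An endothelial precipitate without tumour RNA would hold few of these transcripts. In a precipitate, more tumour cells and more RNA per tumour cell cannot be told apart.

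The windows of 250 bases before the transcription starts of Tyrp1, Tyr and Dct (RefSeq, GRCm38.p6) are shown because these genes belong, like Pmel, to the MITF programme, while none of them differed 2-fold between the classes. Capitals mark CATGTG, the letters of the M-box core, on either strand. Tyrp1 lies at chr4:80833963-80834212 on the plus strand, Tyr at chr7:87493513-87493762 and Dct at chr14:118052247-118052496, both on the minus strand.
Tyrp1: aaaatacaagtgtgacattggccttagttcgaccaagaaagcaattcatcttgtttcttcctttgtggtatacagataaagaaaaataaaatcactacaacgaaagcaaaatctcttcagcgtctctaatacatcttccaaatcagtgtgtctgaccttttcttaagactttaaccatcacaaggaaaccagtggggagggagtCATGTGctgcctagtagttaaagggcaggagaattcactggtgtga
Tyr: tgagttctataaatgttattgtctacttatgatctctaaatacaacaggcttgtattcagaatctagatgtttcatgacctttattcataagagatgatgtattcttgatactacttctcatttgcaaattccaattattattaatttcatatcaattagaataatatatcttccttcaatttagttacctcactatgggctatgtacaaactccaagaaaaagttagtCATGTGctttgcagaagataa
Dct: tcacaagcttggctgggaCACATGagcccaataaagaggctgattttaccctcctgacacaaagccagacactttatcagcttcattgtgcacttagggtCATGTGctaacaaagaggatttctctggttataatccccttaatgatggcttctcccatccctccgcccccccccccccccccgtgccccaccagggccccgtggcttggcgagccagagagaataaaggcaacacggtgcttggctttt
The window of Dct held 2 matches and those of Tyrp1 and Tyr 1 each, while 12.3% of 32851 promoter windows of this length held at least 1. A match is a string of letters, not a measured binding site.

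Pmel (chromosome 10, 128704195 to 128720238, GRCm38, the build also called mm10) stood at 2192 CPM in B16F10 replicate 3 and at 1968 and 2664 CPM in B16F0 replicates 1 and 2. Its level in the 6 Pmel-poor libraries ran from 480 over a median of 842 to 890.6 CPM. The values nearest the threshold were 1968 CPM inside it and 890.6 CPM outside it. In the libraries left out, Pmel was at 524 and 458 CPM in B16F10 replicates 4 and 5 and at 1154 CPM in B16F0 replicate 3. Their Cdh5 levels were 749, 532 and 778 CPM, against 78.4 to 210 CPM in the 9 libraries kept. The mean Pmel level was 2275 ± 355 CPM (SD, n = 3) in the Pmel-rich and 754 ± 171 CPM (SD, n = 6) in the Pmel-poor libraries, a difference of 1.62 in mean log2(CPM + 0.5), and 1.68 within B16F10 and 1.43 within B16F0.

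The difference in Pmel was set by the choice of libraries. Of the other marker transcripts of pigment cells, Tyrp1 and Dct overlapped between the classes. Tyrp1 stood at 5940, 3673 and 4381 CPM in the Pmel-rich libraries and from 2801 over 3829 to 4638 CPM in the Pmel-poor ones, with overlap. Dct, the most abundant of the melanin enzyme transcripts, stood at 6763, 6887 and 7774 CPM in the Pmel-rich libraries and from 5452 over 7141 to 9712 CPM in the Pmel-poor ones, with means of 7141 ± 551 (SD, n = 3) and 7133 ± 1605 CPM (SD, n = 6). The highest Dct level of the 12 libraries was therefore in a Pmel-poor one, B16F0 replicate 5. Tyr, which catalyses the first steps of melanin synthesis, stood at 1112, 1270 and 1101 CPM against 773 to 917 CPM. Mlana stood at 480, 345 and 393 CPM against 237 to 283 CPM. Neither Tyr nor Mlana overlapped between the classes, but their differences of 0.45 and 0.62 (log2) were smaller than that of Pmel. Mitf itself was at 763, 843 and 1155 CPM in the Pmel-rich and from 1027 over 1350 to 1519 CPM in the Pmel-poor libraries, so the classes overlapped with a difference of -0.55 (log2). Sox10 overlapped as well (152 to 179 against 119 to 194 CPM).

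**Figure D1:**
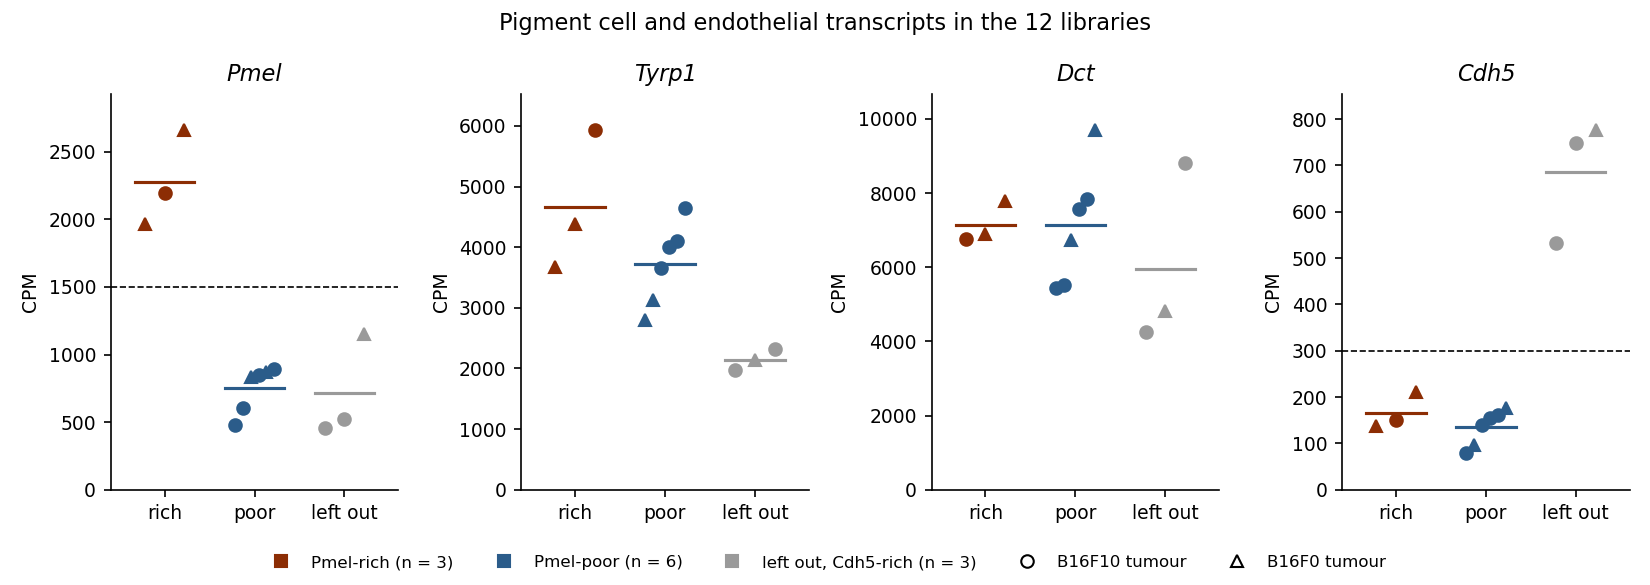
Levels of Pmel, Tyrp1, Dct and Cdh5 in CPM (vertical axes) in the 12 libraries; each point is a library, bars are class means, and dashed lines mark the limits of 1500 CPM for Pmel and 300 CPM for Cdh5 that chose the classes. The 3 Pmel-rich libraries lie at 1968 CPM of Pmel or more, whereas the classes overlap for Tyrp1, Dct and Cdh5.

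Of the endothelial markers, Cdh5 was held under 300 CPM by the choice of libraries, so its level there is no check of the endothelial label. It stood at 150, 210 and 137 CPM in the Pmel-rich libraries and from 78.4 over 147 to 177 CPM in the Pmel-poor ones. Pecam1, an endothelial adhesion molecule that the choice did not use, was at 116, 152 and 146 CPM against 72.7 to 138 CPM. The classes overlapped for Cdh5 and Pecam1, and also for the endothelial gene Kdr (114 to 164 against 82.4 to 218 CPM). Tie1 (38.6 to 57.6 against 20.1 to 38.3 CPM) and Emcn (41.1 to 52.6 against 15.1 to 39.2 CPM), also endothelial, did not overlap and were higher in the Pmel-rich libraries. Dct was at 5452 CPM or more in all 9 libraries, above each of these markers. Rpl22, the gene that carries the tag, stood at 287, 415 and 350 CPM against 217 to 301 CPM.

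Libraries of each class shared more than their Pmel level. Of the Pmel-rich libraries 2 came from lane 1 and 1 (B16F0 replicate 1) from lane 2, and of the Pmel-poor ones 2 (B16F10 replicates 1 and 2) from lane 2 and 4 from lane 6. The date-like prefix of the library name was never shared between classes. Within the Pmel-rich class, B16F10 replicate 3 and B16F0 replicate 2 shared prefix and lane, so these libraries are not separate batches by their names. The Pmel-poor B16F10 replicates 1 and 2 also shared theirs, and the lane 6 libraries had no such prefix. The prefix was in none of the fits below. Lane 1 and lane 6 each held 1 class only among the 9 libraries, so their lane and their class cannot be told apart. Totals were 14616365 to 16665774 counts in the Pmel-rich and 5322510 to 20569186 counts in the Pmel-poor libraries, and 13452 to 13818 against 14466 to 18317 genes had at least 5 counts. Rn45s took 0.022% to 0.211% of the counts of the Pmel-rich libraries and 0.225% to 8.91% of those of the Pmel-poor ones. The Y-linked gene Ddx3y was at 0.183 CPM or less in the 3 Pmel-rich libraries and in B16F10 replicate 1, and at 8.47 to 32.1 CPM in the other 5 Pmel-poor ones. Xist was at 10.2 to 12.0 CPM in the Pmel-rich libraries, at 353 CPM in B16F10 replicate 1 and at 0.461 to 7.42 CPM in the other Pmel-poor ones.

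Among the genes compared, more were lower than higher in the Pmel-rich libraries. Of 13300 genes whose mean over the 9 libraries reached 1 CPM, 445 (3.35%) were higher in the Pmel-rich libraries and 1574 (11.8%) lower. A gene was counted so when all 3 libraries lay beyond all 6 and the means differed at least 2-fold on the log2(CPM + 0.5) scale. Without the fold limit, all 3 lay above all 6 for 2170 genes (16.3%) and below for 2721 genes (20.5%). Since the libraries were chosen by a transcript level, these shares describe the choice and nothing is read from them. Scarce genes could also enter through the 6 Pmel-poor libraries alone, so the number lower follows in part from the filter. With a mean of at least 5 CPM, 432 genes were higher and 907 lower. In both tumour lines the difference reached 2-fold for 328 of the 445 and 1217 of the 1574 genes. The number of higher genes was 681 without B16F0 replicate 1, the Pmel-rich library of lane 2. The median difference over all compared genes was -0.049 (log2).

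The 3 libraries left out by their Cdh5 level were set beside both classes as a description. B16F10 replicates 4 and 5 and B16F0 replicate 3 were on the Pmel-poor side of every Pmel-rich library for 91.5%, 93.3% and 89.4% of the higher genes. For the lower genes these shares were 92.7%, 97.5% and 88.3%. The genes were called because the Pmel-rich libraries are the extreme ones, so high shares follow in part from that choice and show no likeness to the Pmel-poor class. The median over the lower genes of a library's log2 value minus the Pmel-poor mean was -0.64 in B16F0 replicate 3 and -0.44 in B16F10 replicate 4, both of lane 1, and 0.045 in B16F10 replicate 5, of lane 6. By the same measure the Pmel-rich libraries lay from -1.70 to -1.46, so the lane 1 libraries left out stood between the classes.

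The largest differences toward the Pmel-rich libraries were in genes of varied function. Wdr6, a WD-repeat protein gene, stood at 220 CPM in B16F10 replicate 3 and at 256 CPM in both B16F0 replicates 1 and 2, against 36.1 over 46.5 to 89.9 CPM, a 4.56-fold difference. Sdha, the catalytic subunit of mitochondrial complex II, stood at 645, 587 and 758 CPM against 132 over 164 to 251 CPM. Copb2, a subunit of the COPI coat of transport vesicles, stood at 747, 576 and 613 CPM against 129 over 162 to 279 CPM. These 3 genes had no overlap, and the libraries left out stood in or near the Pmel-poor range, at 62.0 to 79.6, 174 to 309 and 200.1 to 280.2 CPM. The other genes of the 12 with the largest differences were the macrophage genes C1qa and Mrc1, the mitochondrial complex I gene Ndufa9, the peroxisomal enzyme gene Hsd17b4, the folate enzyme gene Aldh1l1, the calpain family gene Capn6, the retinol-binding protein gene Rbp7, Birc6 and Pi4ka.

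Birc6, Pi4ka and Rbp7 were also high in some or all of the libraries left out. Birc6, a very large inhibitor of apoptosis protein, stood at 3388, 6245 and 3048 CPM in the Pmel-rich libraries and from 729 to 1593 CPM in the Pmel-poor ones. In the lane 1 libraries left out it was as high, at 3337 CPM in B16F10 replicate 4 and 4355 CPM in B16F0 replicate 3, and it was at 808 CPM in B16F10 replicate 5 of lane 6. Pi4ka, a phosphatidylinositol 4-kinase gene, did the same, with 1080, 736 and 1008 CPM in the Pmel-rich libraries, 172 to 435 CPM in the Pmel-poor ones, and 758 and 1272 CPM in the lane 1 libraries left out. So for both genes all 4 lane 1 libraries, whatever their class, were above all libraries of lane 6. Within lane 2 both genes went with the class. Birc6 stood at 6245 CPM in the Pmel-rich B16F0 replicate 1 and at 736 and 892 CPM in the Pmel-poor B16F10 replicates 1 and 2. Pi4ka stood at 736 CPM against 183 and 217 CPM in the same libraries. The part of the lane was not tested. Rbp7 was highest in the libraries left out (84.9 to 115 CPM, against 28.6 to 63.7 CPM in the Pmel-rich libraries), which are those rich in Cdh5.

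The largest differences toward the Pmel-poor libraries were in genes with long coding sequences. Sptbn1 (chromosome 11, 30099395 to 30268175), which encodes beta-II spectrin of the membrane skeleton over 6462 coding bases, stood at 209, 280 and 232 CPM in the Pmel-rich libraries. In the Pmel-poor ones it stood from 1696 over 2871 to 3293 CPM, 11.4-fold higher. In lane 2, which held both classes, B16F0 replicate 1 had 280 CPM and the Pmel-poor B16F10 replicates 1 and 2 had 3276 and 2664 CPM. Syne2, the giant nuclear envelope protein nesprin-2 with 20610 coding bases, stood at 896, 563 and 506 CPM against 4879 over 5533 to 6838 CPM, 8.79-fold. Spen, a transcriptional repressor, was at 113, 78.2 and 59.8 CPM against 552 to 797 CPM, and Trio, a guanine nucleotide exchange factor, at 79.7, 60.1 and 51.8 CPM against 461 to 653 CPM. Zfc3h1, a factor of nuclear RNA decay, was at 23.1, 25.2 and 19.1 CPM against 208 to 260 CPM. None of these 5 genes overlapped. The chromatin regulator gene Ankrd11, the actin-binding supervillin gene Svil, the guanine nucleotide exchange factor gene Arhgef17, Soga1 and Rgs11 completed the list together with Snap91 and Gli2. Of these 12 genes Rgs11, a regulator of G protein signalling, and Snap91, an endocytic adaptor of neurons, had coding lengths of 1398 and 2703 bases, and the other 10 had 4632 bases or more.

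Snap91 and the Hedgehog pathway transcription factor gene Gli2 were highest in the libraries with the most Rn45s. Snap91 was at 0.421, 0.137 and 0.732 CPM in the Pmel-rich libraries and from 3.63 to 86.4 CPM in the Pmel-poor ones, the highest being B16F0 replicate 5. Gli2 was at 0.301, 0.0684 and 0.183 CPM against 2.67 to 44.4 CPM, again highest in B16F0 replicate 5. In B16F10 replicate 5, left out by Cdh5, they reached 359 and 71.1 CPM. Rn45s took 31.4% of the counts of that library (95% Clopper-Pearson interval 31.35 to 31.41, counting error only) and 8.91% of those of B16F0 replicate 5 (8.89 to 8.93). The part of Rn45s in these differences was not tested.

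**Figure D2:**
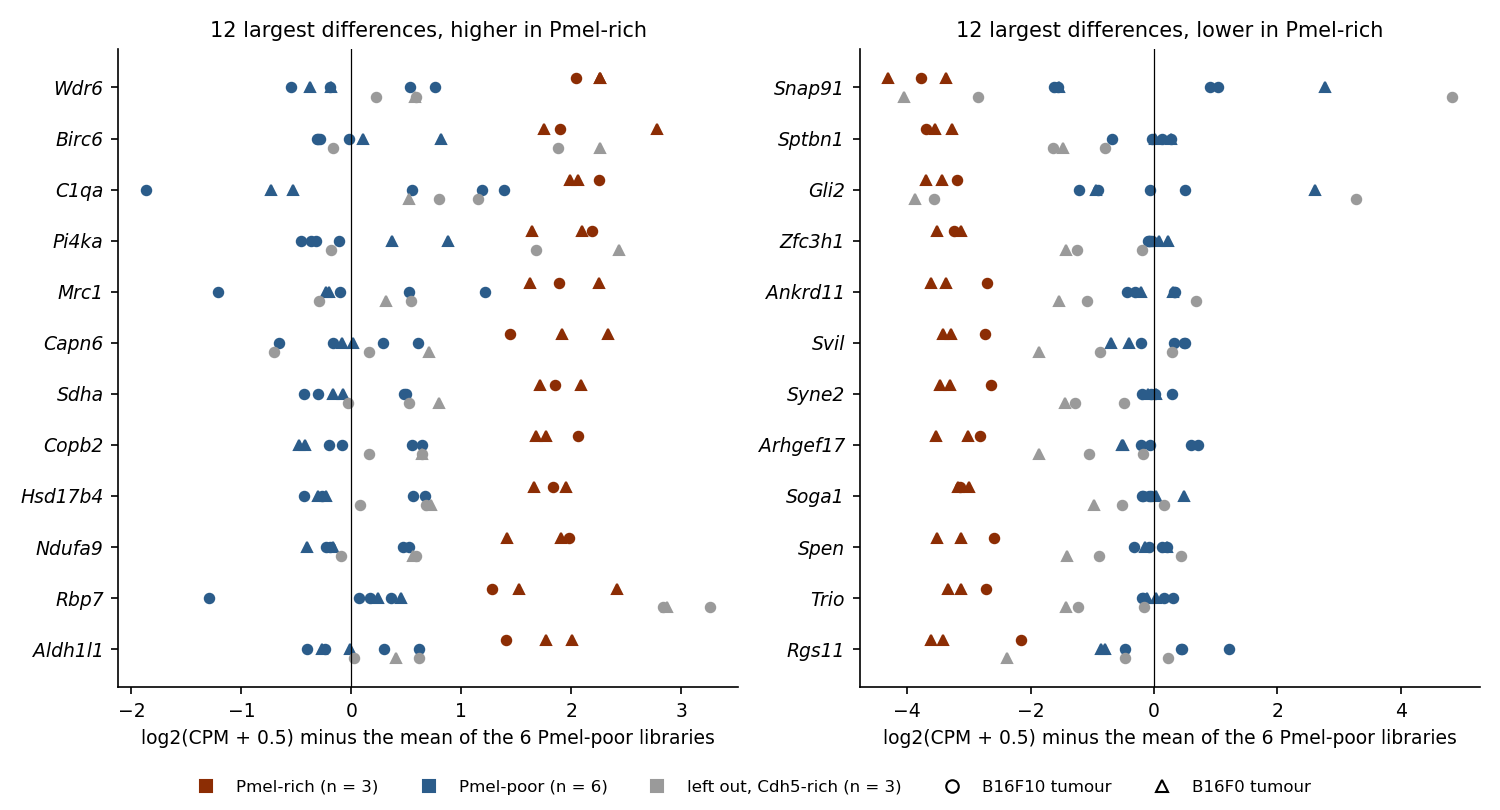
The 12 genes with the largest differences in each direction; the horizontal axes give each library's log2(CPM + 0.5) minus the mean of the 6 Pmel-poor libraries, 1 point a library, coloured by class and shaped by tumour line. Grey points are the libraries left out: they lie near the Pmel-rich libraries for Birc6 and Pi4ka in 2 of 3 cases, and nearer to 0 for genes such as Sptbn1 and Syne2.

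Coding length went with the direction of the difference. In 5 equal bins of the 12246 compared protein-coding genes by coding length, 4.94% of the shortest (75 to 768 bases) and 22.3% of the longest (2649 to 105639 bases) were lower in the Pmel-rich libraries, with 6.17%, 6.25% and 8.94% in the bins between. The shares that were higher were 1.80%, 3.63%, 5.02%, 4.74% and 2.49% from short to long. Among the 2449 genes with the highest mean level, again in 5 bins of coding length, 1.84% of the shortest and 32.2% of the longest were lower, so the order also held among abundant transcripts. Across genes, which are not independent replicates, the difference had a Spearman correlation of -0.24 with coding length and -0.32 with transcript length, and of 0.044 with the GC content of the transcript. The correlation with transcript length was -0.32 within B16F10 and -0.28 within B16F0.

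**Figure D3:**
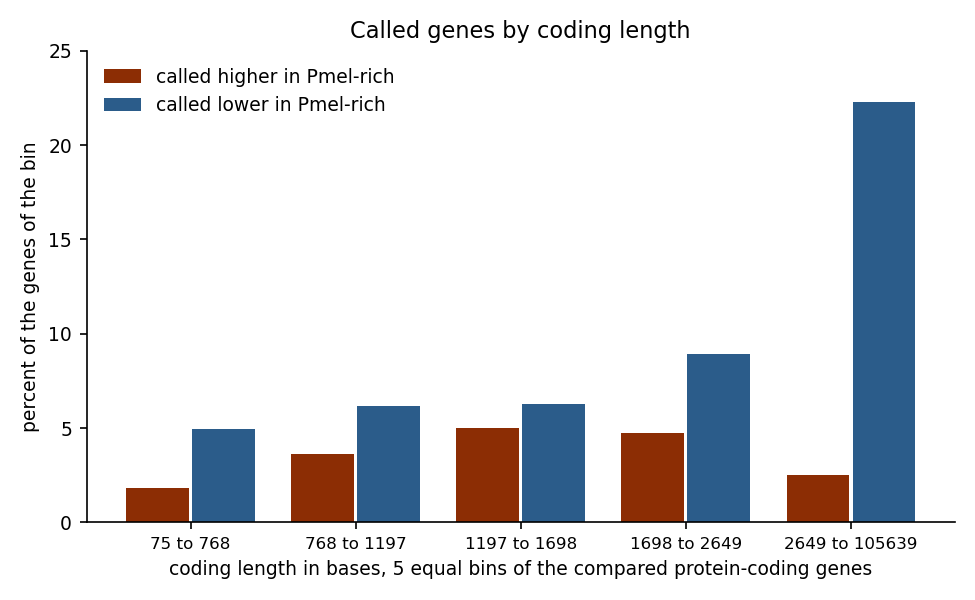
Percent of the compared protein-coding genes called higher or lower in the Pmel-rich libraries (vertical axis) in 5 equal bins of coding length in bases (horizontal axis). The share of lower genes is 4.94% in the shortest and 22.3% in the longest bin.

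The same contrast ran through whole libraries. Genes with over 4000 coding bases, 1114 in number, held 13.5%, 15.0% and 12.4% of the CPM of the Pmel-rich libraries, 21.5% to 26.7% of that of the Pmel-poor ones and 20.4% to 21.5% of that of the libraries left out. Some noncoding RNAs of the nucleus were also lower. Malat1, a nuclear speckle RNA, stood at 3866, 4941 and 4008 CPM in the Pmel-rich libraries and from 7655 to 14770 CPM in the Pmel-poor ones. Neat1, the scaffold of paraspeckles, stood at 159, 127 and 99.7 CPM against 490 over 768 to 1405 CPM. Kcnq1ot1, an antisense RNA of an imprinted locus, stood at 116, 69.7 and 47.9 CPM against 318 to 852 CPM, but reads of overlapping genes on the other strand may be counted in it. Of 10 compared genes of the list of abundant noncoding RNAs 6 were lower and none higher, with a median difference of -1.42 (log2) beside -0.049 and 11.8% lower over all genes. The list also held Lars2, a protein-coding gene that overlapped between the classes and enters this count and median. Lars2 was highest in the libraries with the most Rn45s, at 5501 CPM in B16F10 replicate 5 (left out) and 1529 CPM in B16F0 replicate 5. Meg3 and Xist of this list overlapped between the classes, and the difference of Xist, 1.29 (log2), was toward the Pmel-rich libraries. The mean CPM of Xist went the other way, at 11.2 against 60.7 CPM, with B16F10 replicate 1 at 353 CPM.

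By gene type, 43 of 44 compared snoRNA genes, 79 of 141 antisense genes and 47 of 113 lincRNA genes were lower in the Pmel-rich libraries, against 1190 of 12246 protein-coding genes. Genes were compared from a mean of 1 CPM over the 9 libraries, of which 6 were Pmel-poor. Scarce genes could thus enter through the Pmel-poor class alone, so these shares follow in part from the filter. The summed snoRNA level was 27.0 to 36.1 CPM in the Pmel-rich and 154 to 641 CPM in the Pmel-poor libraries. snoRNAs lie mostly in introns of host genes and guide the modification of ribosomal RNA. Gas5, a host of several of them, stood at 162, 171 and 132 CPM against 397 over 487 to 578 CPM. Summed antisense genes held 464 to 631 CPM against 1187 to 2358 CPM.

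Chemosensory receptor genes, which most tissues do not transcribe, were also fewer in the Pmel-rich libraries. The 1509 olfactory, vomeronasal and taste receptor genes summed to 27.1, 10.6 and 27.7 CPM in the Pmel-rich libraries and to 966, 781, 79.8 and 131 CPM in the Pmel-poor B16F10 libraries (replicates 1, 2, 6 and 7). The Pmel-poor B16F0 libraries held 35.1 and 134 CPM (replicates 4 and 5). The classes did not overlap, but B16F0 replicate 4 was close to the Pmel-rich libraries. Only 7 of the 1509 had a mean of 1 CPM over the 9 libraries, and 4 of these were lower, where 11.8% of all genes were. Of those called, Tas1r3, Olfr856-ps1 and Vmn2r29 were under 1 CPM in every Pmel-rich library. They entered through the Pmel-poor libraries, so nothing is read from this share. Tas1r3, a subunit of the sweet taste receptor, was at 0.421, 0.274 and 0.793 CPM against 1.38 to 6.68 CPM. Without B16F10 replicates 1 and 2, the libraries with the most receptor reads, 839 genes were higher and 1323 lower in the Pmel-rich libraries. The part of these reads in the other differences was not tested.

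**Figure D4:**
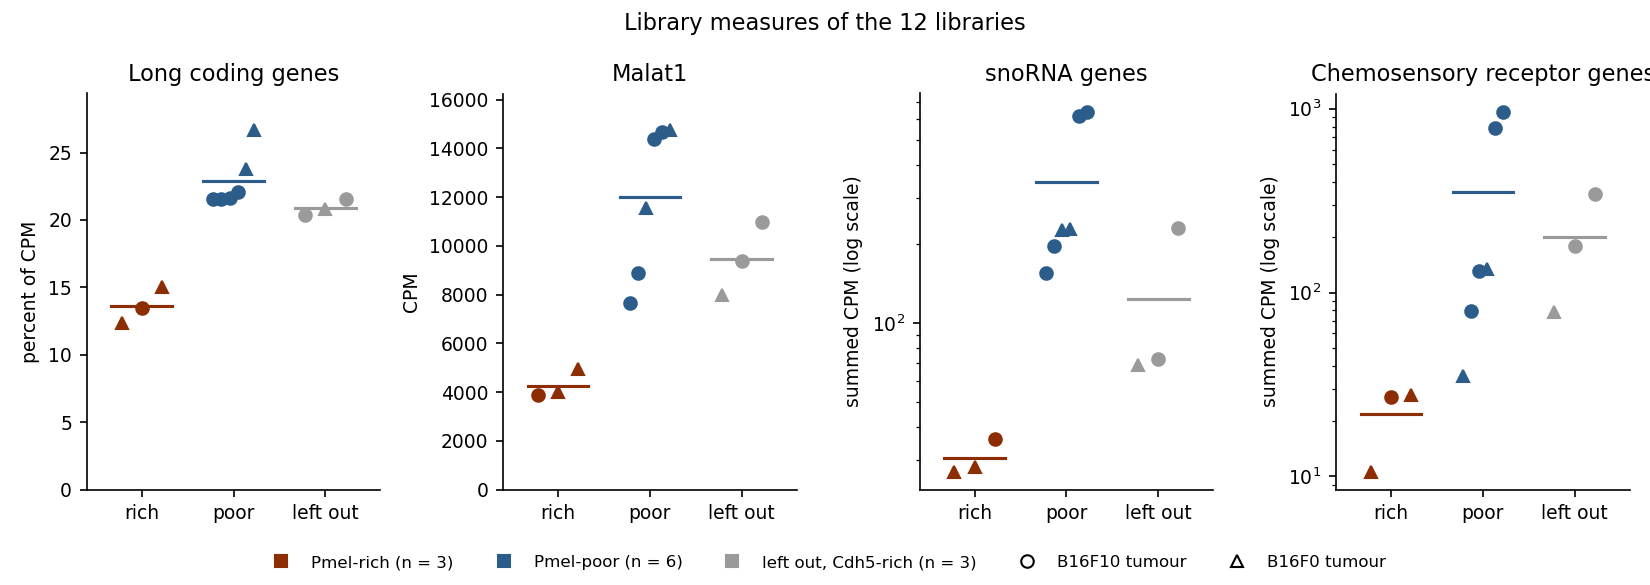
Measures of each of the 12 libraries (vertical axes: percent of CPM in genes with over 4000 coding bases, CPM of Malat1, and summed CPM of snoRNA genes and of chemosensory receptor genes on log scales); points are libraries and bars class means. The 3 Pmel-rich libraries lie below all other libraries in each panel.

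In the list of melanin synthesis and the melanosome no gene reached 2-fold other than Pmel, whose difference the choice of libraries fixed. Of 16 compared genes 9 lay above in all 3 Pmel-rich libraries, Pmel among them by that choice, and none below, where 16.3% and 20.5% of all genes did. The median was 0.55 (log2) with Pmel included. Gpnmb, a melanosomal and lysosomal glycoprotein related to Pmel, stood at 3783, 3606 and 3910 CPM against 1749 over 2114 to 2667 CPM. Slc24a5, a cation exchanger of pigment organelles, stood at 555, 618 and 667 CPM against 279 to 425.6 CPM, and Slc45a2, another transporter of these cells, at 779, 718 and 746 CPM against 439 to 509 CPM. Cd63, a tetraspanin that sorts Pmel into melanosomes, stood at 177, 161 and 247 CPM against 66.8 to 114 CPM. Each of these 4 differed by less than 2-fold, and none overlapped.

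Regulators of the pigment programme showed no difference of 2-fold. Of 15 compared transcription factors and signalling genes none was called in either direction, 1 lay above and 2 below (16.3% and 20.5% over all genes), with a median of 0.18. Pax3 was at 235, 235 and 243 CPM in the Pmel-rich libraries and slightly higher, at 260 to 298 CPM, in the Pmel-poor ones. Of 19 other genes linked to MITF, the purine enzyme gene Gmpr was higher (24.7, 26.7 and 30.6 CPM against 8.75 to 16.4 CPM). The survival gene Bcl2 was lower, at 65.4, 36.1 and 40.5 CPM against 84.0 over 162 to 201 CPM, and so was the kinase activator gene Cdk5r1. Of 23 genes of melanosome transport and Rab function none was called, where 3.35% of all genes were higher and 11.8% lower, and 9 lay above, where 16.3% of all genes did. In the list of genes of neural crest-like and dedifferentiated melanoma cells 4 of 17 were lower and none higher, with a median of -0.56. These were Fn1, encoding fibronectin over 7431 coding bases (159, 54.0 and 96.8 CPM against 191 to 1421 CPM), the transcription factor genes Jun and Zeb1, and the matrix protein gene Cyr61. The share of lower genes over all genes was 11.8%.

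Melanosomes are related to lysosomes. Of 20 lysosomal genes 6 were higher and none lower (median 0.65), where 3.35% of all genes were higher. The protease gene Ctsd stood at 927, 1007 and 1220 CPM against 448 over 485 to 543 CPM, and the protease gene Ctsz at 553, 538 and 548 CPM against 172 to 240 CPM. Gaa and Glb1, which encode glycosidases, and Grn, the progranulin gene, were also among them. Of 15 subunits of the proton pump that acidifies both organelles, Atp6v1a alone reached 2-fold (476, 531 and 612 CPM against 188 to 255 CPM), 9 lay above (16.3% over all genes) and the median was 0.55.

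Genes of energy metabolism and of cholesterol synthesis were called higher and none lower. Of 24 subunits of oxidative phosphorylation 9 were higher and none lower (median 0.78), where 3.35% of all genes were higher and 11.8% lower, and 16 lay above all Pmel-poor libraries, where 16.3% of all genes did. Atp5a1, the alpha subunit of ATP synthase, stood at 1522, 895 and 1365 CPM against 254 over 353 to 623 CPM, and Atp5b, its beta subunit, at 1374, 1042 and 1356 CPM against 427 over 475 to 557 CPM. Of 16 glycolysis genes 5 were higher and none lower (median 0.90). They included Aldoc (43.8, 75.9 and 70.4 CPM against 15.1 to 28.8 CPM) and the pyruvate kinase gene Pkm (1633, 1340 and 1629 CPM against 580 to 1023 CPM). Of 18 genes of cholesterol synthesis and uptake 5 were higher (Hmgcs1, Fdps, Mvd, Mvk and Lss, all of the synthesis route) and none lower. Hmgcs1, which makes the precursor HMG-CoA, stood at 285, 463 and 474 CPM against 131 to 192 CPM.

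Genes of the cell cycle went both ways, more of them toward the Pmel-rich libraries. Of 24 genes 17 lay above all Pmel-poor libraries and 1 below, where 16.3% and 20.5% of all genes did. At 2-fold 9 were higher, among them 5 subunits of the replicative helicase, and 1 was lower (median 0.90), where 3.35% and 11.8% of all genes were. Mcm3, one of the helicase subunits, stood at 496, 244 and 450 CPM against 97.2 over 116 to 181 CPM, and Rrm1, which makes deoxynucleotides, at 673, 447 and 510 CPM against 131 to 326 CPM. The proliferation marker Mki67, with 9531 coding bases, went the other way, at 404, 330 and 234 CPM against 1273 over 2121 to 2584 CPM. Top2a, another proliferation marker, overlapped (1747, 1581 and 1399 CPM against 952 to 1813 CPM).

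In the stress and response lists no more than 3 genes a list were called in either direction, where 3.35% of all genes were higher and 11.8% lower, and nothing is read from a single call. Of 20 genes of the unfolded protein and integrated stress responses Hspa5, Calr and Asns were higher (median 0.28). Hspa5, the main chaperone of the endoplasmic reticulum, stood at 3177, 2700 and 2656 CPM against 914 over 1286 to 2372 CPM. Of 11 heat shock genes Hspd1 and Hsp90ab1 were higher and Hspa1b lower. Hspd1, a mitochondrial chaperone, was at 1226 and 1003 CPM in B16F10 replicate 3 and B16F0 replicate 2, but at 363 CPM in B16F0 replicate 1, next to the highest Pmel-poor library at 360 CPM. Of 17 hypoxia genes Vegfa, the main angiogenic growth factor, was lower (117, 89.1 and 72.2 CPM against 251 over 332 to 432 CPM) and none higher, with a median of -0.26. Of 18 immediate early genes Jun was lower, and of 24 interferon response genes Mx2, with medians of -0.43 and -0.0037. Of 30 cytosolic ribosomal protein genes none was higher and Rpl19 lower, at 5.21 CPM or less in every library compared (median 0.022). None of 13 genes of MHC class I presentation and of 11 replication-dependent histone genes was called.

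Markers of other cell types moved with the classes in part. Of 17 compared macrophage genes 4 were higher and none lower (median 1.13), where 3.35% of all genes were higher and 11.8% lower. Mrc1, the mannose receptor, stood at 97.7, 126 and 81.6 CPM against 10.97 over 23.5 to 61.4 CPM, C1qa of complement at 21.3, 17.7 and 18.6 CPM against 0.756 to 11.5 CPM, and Csf1r, the receptor on which macrophages depend, at 16.7, 17.3 and 15.1 CPM against 2.50 to 13.2 CPM. In these 3 genes the lane 2 libraries B16F10 replicates 1 and 2 were the highest of the Pmel-poor ones. Of 22 pan-endothelial genes Cldn5 and Plvap were higher (median 0.48), and 8 lay above, where 16.3% of all genes did. Cldn5, a tight junction protein of vessels, stood at 14.3, 11.8 and 19.6 CPM against 3.71 to 6.69 CPM, and at 28.1 to 71.9 CPM in the libraries left out. Of 5 adipocyte genes Fabp4, which capillary endothelium also expresses, and Pnpla2 were higher. None of 13 fibroblast genes was called, Myh11 of 11 pericyte and smooth muscle genes and Neb of 9 skeletal muscle genes were lower, and both have long coding sequences (5916 and 21456 bases). The part of these cell types in the other differences was not tested.

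**Figure D5:**
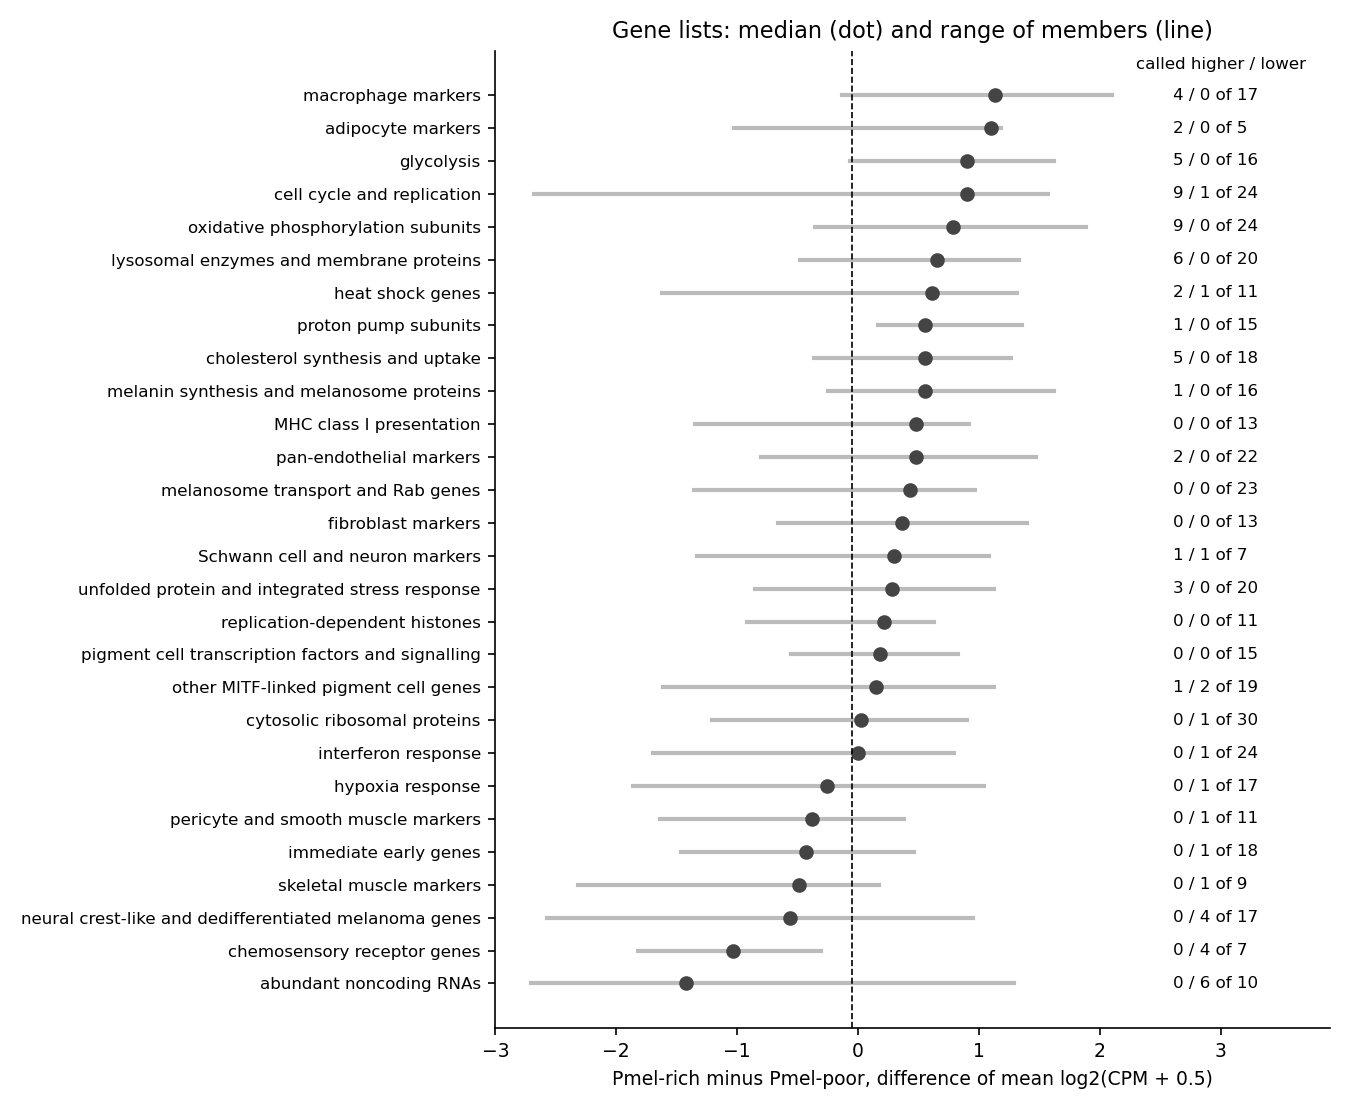
Median (dot) and range (line) of the difference of mean log2(CPM + 0.5), Pmel-rich minus Pmel-poor, of gene lists with at least 5 compared genes; numbers at the right give the genes called higher and lower of those compared, and the dashed line marks the median of all genes at -0.049. Macrophage and adipocyte markers lie furthest to the right with medians of 1.13 and 1.102, glycolysis, cell cycle and oxidative phosphorylation follow at 0.78 to 0.90, and the abundant noncoding RNAs lie lowest at -1.42.

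The genes whose level followed Pmel most closely over the 9 libraries were Dtd1, Trap1, Elp3, Ctnnbl1, Polr1b, Nln, Dus2 and Skiv2l2, with Pearson correlations of log2 values from 0.984 to 0.992 (n = 9, a description of libraries that share class and lane). None is a pigment gene of the lists above. The classes were split on Pmel, so a gene that splits them the same way tends to a high correlation. Within the 6 Pmel-poor libraries, which also entered the choice of these genes, the correlations ran from 0.859 (Skiv2l2) to 0.990 (Elp3). Dtd1, a deacylase that proofreads charged transfer RNAs, stood at 27.4, 25.05 and 31.8 CPM in the Pmel-rich libraries and at 8.45 to 13.1 CPM in the Pmel-poor ones. Elp3, the catalytic subunit of the Elongator complex, stood at 208, 193 and 252 CPM against 75.1 to 99.8 CPM.

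The tumour line, which the labels give, was the one contrast tested. It asked which transcripts differ between B16F10 (n = 5) and B16F0 (n = 4) over the 9 libraries when the Pmel class is in the model. With the class, 166 of 13774 tested genes were higher (1.21%) and 231 lower (1.68%) in B16F10 (edgeR, quasi-likelihood, false discovery rate 0.05). Without it 83 (0.603%) and 68 (0.494%) passed, and all 151 of these passed with the same sign with the class as well. The biological coefficient of variation, the spread between libraries beyond counting error, was 0.251 with and 0.387 without the class. Without B16F10 replicate 3, 74 genes passed as higher and 75 as lower, without B16F0 replicate 4 these numbers were 61 and 81, and without B16F0 replicate 5 they were 76 and 101. The number of lower genes was also 139, 149 and 151 without B16F0 replicate 1, B16F10 replicate 1 and B16F10 replicate 2.

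The genes that led the line test were compared between lines within each class. Mcoln3, a lysosomal cation channel gene, stood at 26.2 CPM in the Pmel-rich B16F10 library, at 31.2 to 50.3 CPM in the 4 Pmel-poor ones and at 0.122 to 0.715 CPM in all 4 B16F0 libraries. It was higher in B16F10 by 6.20 ± 0.36 on the log2 scale (SE; adjusted p from edgeR 6.9e-06). Abcc2, an export pump gene, stood at 3.37 CPM in the Pmel-rich B16F10 library and at 2.18 to 5.10 CPM in the Pmel-poor ones, against 48.0 to 64.9 CPM in B16F0 (log2 fold change -4.15 ± 0.19, SE; edgeR adjusted p = 1.1e-06). The Pmel-rich class held a single B16F10 library, and whether the line difference itself differs between classes was not tested.

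Some pigment cell genes differed between the lines with the class in the fit. Of 16 tested genes of melanin synthesis and the melanosome 2 were lower in B16F10 and none higher, of 15 transcription factors and signalling genes 3 were lower and none higher, and of 20 other MITF-linked genes 2 were higher and 3 lower, where 1.21% of all genes were higher and 1.68% lower. Oca2, which sets the pH of melanosomes, fell by 1.09 on the log2 scale in B16F10 (SE 0.16, edgeR adjusted p = 0.0033). It stood at 122 CPM in the Pmel-rich and 115 to 168 CPM in the Pmel-poor B16F10 libraries, and at 213 and 266 CPM in the Pmel-rich and 280 and 287 CPM in the Pmel-poor B16F0 ones. Mreg, of melanosome transport, fell by 0.91 (SE 0.13, edgeR adjusted p = 0.0029). Both missed the threshold in the 6 Pmel-poor libraries alone (edgeR adjusted p = 0.058 and 0.071). The growth factor receptor gene Erbb3 and the transcription factor genes Sox5 and Irf4 also passed as lower (edgeR adjusted p = 0.029, 0.014 and 0.040). Erbb3 and Irf4 each lost the call without any of 7 single libraries, namely B16F10 replicates 1, 2, 3 and 6 and B16F0 replicates 1 and 4 for both genes, with B16F0 replicate 5 for Erbb3 and B16F0 replicate 2 for Irf4. Sox5 lost it without B16F10 replicate 3 or B16F0 replicate 4 or 5. These 3 genes also lost the call without the class in the fit. Bcl2, lower in the Pmel-rich libraries, was higher in B16F10 by 0.80 ± 0.13 (SE; edgeR adjusted p = 0.0065), but not without B16F0 replicate 5 or without the class (edgeR adjusted p = 0.064 and 0.30). Tyrp1, Dct and Mitf did not pass, with log2 fold changes of 0.41, -0.33 and -0.23 (edgeR adjusted p = 0.23, 0.52 and 0.64).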

How the data were processed

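The authors deposited raw counts (whole numbers, by gene symbol) of 12 libraries of HA-tagged ribosome precipitates, made with the ScriptSeq kit, per the labels. Build mm10 and the tools STAR 2.2.1, cutadapt 1.16, R 3.3.2, edgeR and featureCounts 1.6.0 appear in the submitters' processing notes, without settings. Neither annotation nor strandedness is given in the sources used here, and overlapping, antisense and near-identical genes may share reads. Deposited tables of fold changes and of normalized values were not used. Lane and name prefix came from the library names in the labels.

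CPM excluded Rn45s, whose share is given in the report. Genes reaching a mean of 1 CPM over the 9 libraries were compared by difference of mean log2(CPM + 0.5), which understates changes of low genes. A gene was called where all 3 Pmel-rich libraries lay beyond all 6 Pmel-poor ones at 2-fold or more. No test was made, because Pmel had chosen the libraries. The tumour line was tested with edgeR 4.0.16 (quasi-likelihood, TMM, filterByExpr with a minimum count of 10) in R 4.3.3 with the Pmel class as covariate and Benjamini-Hochberg adjustment; each SE is log2 fold change / sqrt(F). Since the labels name no separate animals, p-values cover only the spread of these libraries, which may be technical. The scripts were tested on simulated data. Chi-square tests of counts found every pair of libraries of a group to differ beyond sampling noise.

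The classes, the 33 gene lists and the rules were chosen with earlier results of these data known. Named were the 12 called genes with the largest difference in each direction (mean of at least 5 CPM, no predicted or small RNA genes), up to 3 called genes a list, fixed markers, 5 genes in each direction of the line test and the 8 genes most like Pmel. Other genes of the text were taken from the lists after their values were seen. Of 9 mitochondrially encoded genes listed none was in the count table. Lists of T and NK, B cell and neutrophil, keratinocyte and red blood cell markers had 2, 1, 4 and 2 compared genes with no call, and 7 Schwann cell and neuron genes had Mbp higher and Prx lower. Lengths came from the longest coding transcript of GENCODE M21, in which 23322 of 24421 symbols had 1 entry, and sequences from RefSeq. Alternatives were other scalings, filters, pseudocounts, thresholds, covariates and tools (limma-voom in limma 3.58.1, DESeq2 1.42.0) and leaving out each library. Some list genes are not reported here by name.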

Additional observations from a re-analysis of the deposited data

Results flagged for a closer look

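In 45 of 210 group values tested, the highest or lowest library of its tumour line lay apart from the nearest of the others by more than Dixon's 95% limit, where chance would give about 1 in 20. All 12 libraries entered, so B16F10 had 7 and B16F0 5. Most of these genes were named because they differ between the Pmel classes, which raises the number, and the values of Pmel and Cdh5 restate the choice of libraries, so nothing is read from the number.

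B16F10 replicate 3, the one Pmel-rich B16F10 library, stood apart from the other 6 in Pmel, by which it was chosen (2192 CPM), in the share of CPM in genes with over 4000 coding bases (13.49%) and in Soga1 (16.78 CPM, the lowest). It was the highest for Wdr6 (219.5 CPM), Capn6 (50.99 CPM), Sdha (645.3 CPM), Copb2 (746.9 CPM), Hsd17b4 (130.3 CPM), Ndufa9 (319.0 CPM) and Aldh1l1 (64.4 CPM). Among list genes it was the highest for Atp6v1a (476.1 CPM), Ctsz (553.0 CPM), Asns (311.8 CPM), Hspd1 (1226 CPM), Hsp90ab1 (4918 CPM), Pkm (1633 CPM), Mcm3 (495.6 CPM), Rrm1 (673.2 CPM), Atp5a1 (1522 CPM) and Mlana (480.2 CPM). The same held for genes chosen for their likeness to Pmel: Dtd1 (27.36 CPM), Trap1 (127.7 CPM), Elp3 (208.4 CPM), Ctnnbl1 (105.9 CPM), Polr1b (174.3 CPM), Dus2 (23.09 CPM) and Skiv2l2 (292.9 CPM). In B16F0, replicate 2 stood apart in Hspd1 (1003 CPM).

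Among the values tested, the libraries rich in Rn45s stood apart in 3 transcripts each. Rn45s took 31.38% of the counts of B16F10 replicate 5 and 8.91% of those of B16F0 replicate 5, Snap91 stood at 358.5 and 86.37 CPM there, and Gli2 at 71.09 and 44.41 CPM.

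B16F10 replicate 1, the shallowest library, was the highest of its line for Hspa1b (19.09 CPM), Rmrp (2768 CPM), Xist (352.9 CPM) and B4galnt4 (2.1 CPM), and B16F10 replicate 2 for the muscle gene Neb (111.1 CPM). Of the libraries left out for their Cdh5 level, B16F0 replicate 3 was the highest of its line for Cdh5 (777.6 CPM), Pecam1 (667.7 CPM), Plvap (634.0 CPM), Ddx3y (79.53 CPM) and Kif26a (12.33 CPM), and B16F10 replicate 4 for Cldn5 (71.86 CPM).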

How the results depend on the processing

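The counts of genes higher and lower in the Pmel-rich libraries stayed within 1.5 times of 445 and 1574 under other scalings, pseudocounts and no filter. The number higher was 3 at a 4-fold threshold, 1593 at 1.5-fold, 839 without B16F10 replicates 1 and 2, 681 within B16F10 and 927 within B16F0. The number lower was 349 at 4-fold, 907 with a mean of at least 5 CPM, 893 with a Pmel threshold of 2000 CPM, which moves B16F0 replicate 1 to the other class, and 2569 within B16F10. Leaving out 1 library gave 400 to 681 higher (681 without B16F0 replicate 1) and 1435 to 1868 lower genes. Of 2343 comparisons of named genes with alternatives, 65 moved beyond the spread between libraries. Part of the 2343 could not move. Fold thresholds, filters on the mean CPM and a Pmel threshold of 1200 CPM leave each difference unchanged. The 65 of 2343 is therefore no measure of stability. No difference of a called gene reversed, and sign changes of named genes without a call were not counted as reversals. Mgarp, without a call, differed by -1.23 (log2) over the 9 libraries and by 0.40 within B16F10.

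In the line test, higher and lower counts of 166 and 231 became 83 and 68 without the class, 380 and 381 with the lane added, 47 and 54 in the 6 Pmel-poor libraries alone, 409 and 413 with DESeq2 and 300 and 409 at a false discovery rate of 0.1. Leaving out 1 library gave 61 to 165 higher and 75 to 201 lower genes. A fit with the replicate number as a block in place of the class gave 2917 and 2610, with 1 residual degree of freedom. Replicate numbers 1 and 2 are shared by the lines, and the deviations of same-numbered libraries from their line means correlated at -0.27 and -0.24. Each of these numbers joins a Pmel-poor B16F10 to a Pmel-rich B16F0 library. The line difference of the block fit rests on these numbers alone, so it cannot be told apart from the class difference. Its counts are therefore no count of line genes. The class difference enters these correlations, so they cannot show whether the numbers pair the libraries. The 10 genes that led the line test kept their call in all 200 comparisons with alternatives, 20 a gene. One alternative, the false discovery rate of 0.1, reuses the main fit with a looser limit, so no call can be lost there. Another, the replicate block, cannot separate line from class. Of the 9 pigment cell genes named for the line test, Oca2 and Mreg lost their call in 1 of 20 alternatives each. Bcl2 lost it in 4, Sox5 in 5 and Erbb3 and Irf4 in 11 each. Tyrp1 passed with DESeq2 (log2 fold change 0.43). With the replicate block in place of the class, where line and class cannot be told apart, Tyrp1 and Mitf changed sign (-0.19 and 0.11). With 5322510 counts in B16F10 replicate 1, genes near 1 CPM rest on few counts there.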
